A study of Ovis aries with 16 samples.

Results

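Glucocorticoid action in sheep fat was followed through 6 genes taken by name from the 28524 genes of the deposited count table. NR3C1 encodes the glucocorticoid receptor and NR3C2 the mineralocorticoid receptor. HSD11B1 encodes the enzyme 11-beta-hydroxysteroid dehydrogenase type 1. FKBP5, TSC22D3 and ZBTB16 are targets that the activated receptor induces. RNA-seq was run on 16 libraries from female sheep of about 21 months, 4 in each of 4 groups. The mothers had received bisphenol A (BPA, a plasticizer with oestrogen-like activity) at 0.5 mg/kg/day in corn oil, or corn oil alone, by daily injection under the skin between days 30 and 90 of pregnancy (term about 147 days). The groups are control and BPA in visceral fat (mesenteric fat around the ventral rumen) and control and BPA in subcutaneous fat (sternal). All ewes were weaned at about 8 weeks, kept on a maintenance diet against obesity, brought into oestrus synchrony with prostaglandin and sampled 24 hours after the last injection, in the follicular phase. Exposure was thus maternal and prenatal, and the fat came from the adult daughters.

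Cortisol crosses into the cell and binds the glucocorticoid receptor, which is held ready by chaperones of the HSP90 family. The bound receptor enters the nucleus and switches genes on or off. HSD11B1 makes active cortisol from inert cortisone inside the fat cell, and the mineralocorticoid receptor, which also binds cortisol, is expressed in fat as well. In adipose tissue glucocorticoids favour fat cell differentiation and restrain inflammation, and visceral fat is known as a depot that responds strongly to them.

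The libraries held 3.05 to 14.3 M counts, 11.0 to 13.1 in visceral controls, 6.77 to 14.3 in visceral BPA, 4.74 to 6.22 in subcutaneous controls and 3.05 to 4.83 in subcutaneous BPA. Libraries are named by the number that opens their title, and 5 numbers (902, 924 and 928 in controls, 918 and 977 in BPA) occur in both depots. The labels do not say whether a number is an animal, so p-values measure the spread between these libraries. In a principal component analysis the first component (32.8% of variance) separated the depots. Visceral BPA library 977 stood apart on the second component at 95.6 (the others -26.5 to 18.9). Subcutaneous controls 902 and 924 stood apart on the third at 53.5 and 51.9 (the others -42.3 to 10.6). All 8 adipocyte markers were present in every library, with a summed level of 12839 to 33084 CPM (counts scaled to the size of the library). Mesothelial markers summed to 29.9 to 283 CPM in visceral libraries and 1.86 to 9.05 in subcutaneous ones. In whole tissue, fewer cells of a type and less RNA per cell cannot be told apart.

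The smallest count of any of the 6 genes in any library was 150, and all 6 passed the filter on low counts in every comparison. In the table's own coordinates, whose genome build is not given in the sources used here, NR3C1 spans positions 56688422 to 56808474 of chromosome 5 (minus strand, 14 exon blocks). NR3C2 spans 10838547 to 11273303 of chromosome 17 (plus strand, 10 blocks), and HSD11B1 spans 77036851 to 77105871 of chromosome 12 (minus strand, 9 blocks). The 3 targets lie on 3 other chromosomes: FKBP5 at 11252822 to 11371510 of chromosome 20 (minus, 13 blocks), TSC22D3 at 135917241 to 135984847 of chromosome X (plus, 8 blocks) and ZBTB16 at 27130871 to 27333884 of chromosome 15 (plus, 8 blocks). No other gene in the table overlapped these spans.

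Compared per length of exon, TSC22D3 had the highest level, with a mean of 75.6 CPM per kilobase over the 16 libraries, above 94.8% of the 14793 genes that passed the filter. NR3C1 (35.9) and ZBTB16 (35.6) were close to each other, followed by FKBP5 (26.4) and HSD11B1 (21.9). NR3C2 was the lowest at 8.70 CPM per kilobase, near the middle of all genes (51.9%). Per length, NR3C1 exceeded NR3C2 in each of the 16 libraries, by 2.95 to 5.72 times.

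NR3C1, the receptor itself, was highest in subcutaneous controls, with 326, 314, 324 and 351 CPM in libraries 902, 924, 928 and 931. Subcutaneous BPA libraries 918, 922, 941 and 977 had 293, 261, 293 and 277 CPM. All 4 BPA values lay under all 4 control values, a mean of 281 ± 15.6 against 329 ± 15.8 CPM (SD, n = 4). The log2 fold change was -0.22 ± 0.12 (standard error) and did not pass edgeR's quasi-likelihood test (unadjusted p = 0.0847, adjusted p = 0.425). Of all genes tested in subcutaneous fat, 3.18% were lower in BPA without overlap.

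In visceral fat NR3C1 stood in the same order. Controls 902, 908, 924 and 928 had 245, 268, 247 and 289 CPM, and BPA libraries 910, 918, 977 and 984 had 245, 217, 160 and 227 CPM. The highest BPA library and the lowest control differed by under 1 CPM (244.889 against 244.915), so the groups touched without overlapping, which 1.96% of genes tested did in this direction. The log2 fold change was -0.30 ± 0.16 (edgeR, unadjusted p = 0.0839, adjusted p = 0.658), with means of 212 ± 36.6 and 262 ± 20.8 CPM. Without library 977, the lowest, the estimate was -0.20 (adjusted p = 0.989). The BPA effect on NR3C1 did not differ between depots beyond error (log2 difference -0.08 ± 0.19).

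NR3C1 values were also lower in visceral than in subcutaneous fat. In controls the log2 fold change was -0.32 ± 0.12 (edgeR, unadjusted p = 0.0214, adjusted p = 0.101) and in BPA ewes -0.41 ± 0.16 (adjusted p = 0.136), with no overlap between depots in either. Shares of 9.74% and 9.03% of all genes were lower in visceral fat without overlap in the 2 comparisons. DESeq2 called the control difference at the same size (adjusted p = 0.0287), the only call among 21 alternative settings. In BPA ewes DESeq2 gave no call, and 3 of 20 settings did. These were limma voom over 16 libraries without a block (log2 -0.42, adjusted p = 0.0389) and with it, and edgeR over 16 libraries. In the 5 numbers found in both depots the log2 values ran from -0.79 to -0.16. Their negative sign was already fixed by the lack of overlap between depots, and the BPA numbers among them were not taken as pairs. The order of group means was thus subcutaneous control, subcutaneous BPA, visceral control, visceral BPA, and only the middle pair of neighbours overlapped.

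NR3C2, the mineralocorticoid receptor, was called in no comparison. Subcutaneous controls 902, 924, 928 and 931 had 59.4, 68.0, 53.2 and 48.0 CPM, and subcutaneous BPA libraries 918, 922, 941 and 977 had 55.3, 56.0, 67.5 and 53.0. Visceral controls 902, 908, 924 and 928 had 48.9, 40.6, 49.9 and 42.8 CPM, and visceral BPA libraries 910, 918, 977 and 984 had 55.4, 48.4, 42.5 and 32.8. Every neighbouring pair of groups overlapped. For BPA against control the log2 fold change was 0.02 ± 0.15 in subcutaneous fat (adjusted p = 0.963) and -0.02 ± 0.18 in visceral fat (adjusted p = 0.973). For visceral against subcutaneous fat it was -0.32 ± 0.14 in controls (adjusted p = 0.159) and -0.38 ± 0.19 in BPA ewes (adjusted p = 0.226). In the 5 numbers found in both depots, visceral libraries had 42.5 to 49.9 CPM and subcutaneous ones 53.0 to 68.0. Any pairing of these libraries would put the visceral one lower, and the BPA numbers among them were not taken as pairs.

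**Figure D1:**
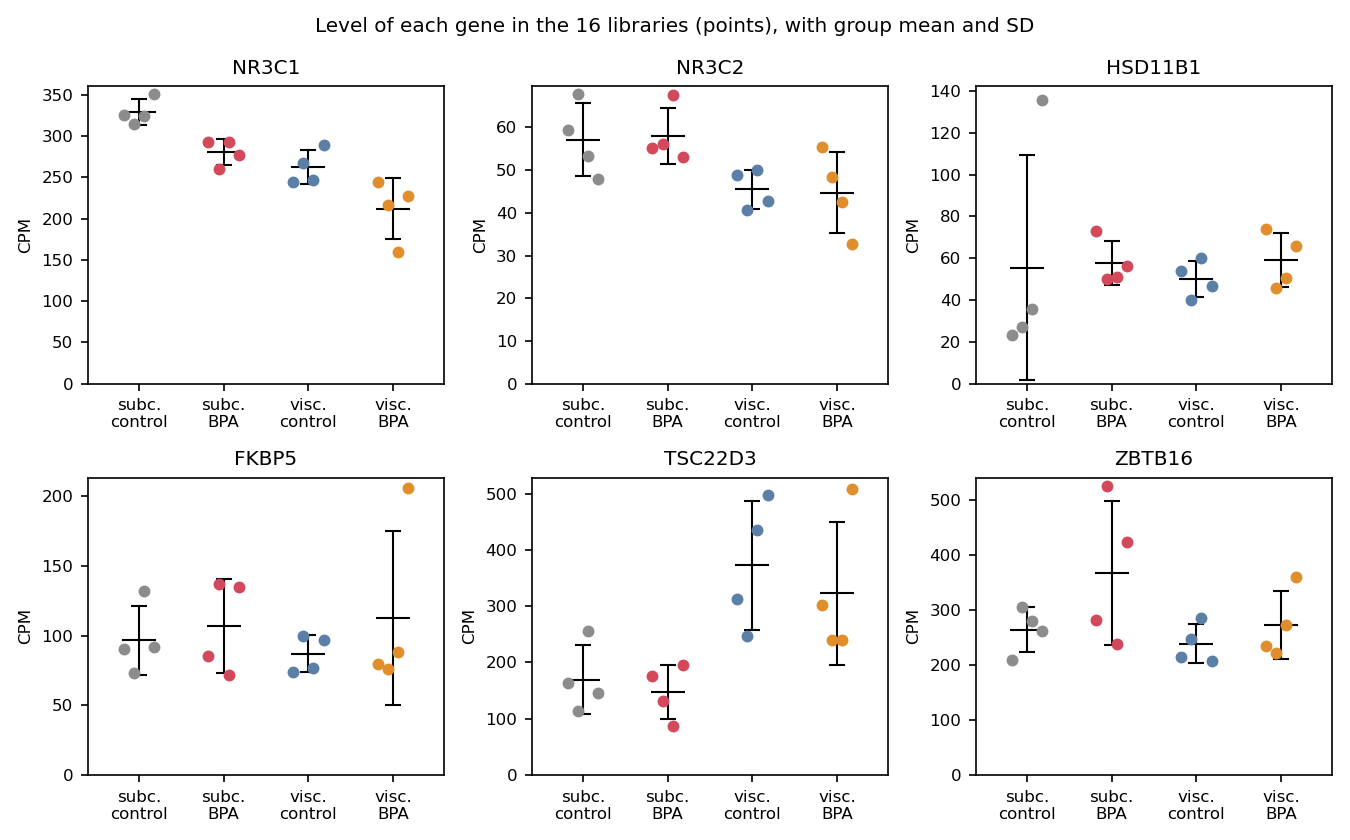
Level in CPM (vertical axes, starting at 0) of the 6 genes in the 4 groups; each point is a library, the long dash is the group mean and the bar its SD (n = 4). NR3C1 steps down from subcutaneous control to visceral BPA, TSC22D3 is high in visceral fat, and single libraries stand out for HSD11B1 (subcutaneous control, 135.7) and FKBP5 (visceral BPA, 205.5).

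With NR3C1 values lower in BPA without overlap and NR3C2 values overlapping, the ratio of the receptors per length was taken within each library. It was 4.59 ± 0.887 in subcutaneous control, 3.81 ± 0.362 in subcutaneous BPA, 4.55 ± 0.771 in visceral control and 3.83 ± 1.08 in visceral BPA (SD, n = 4). The groups overlapped in both depots: visceral BPA library 984 had the ratio 5.40, above all visceral controls (3.86 to 5.28).

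HSD11B1, the cortisol-producing enzyme, had a single library that decided its comparisons with subcutaneous controls. Subcutaneous controls 902, 924 and 928 had 23.4, 27.1 and 35.8 CPM, and control 931 had 135.7. Subcutaneous BPA libraries 918, 922, 941 and 977 had 72.8, 50.2, 51.1 and 56.2 CPM, each above the 3 low controls and below control 931. Visceral controls 902, 908, 924 and 928 had 54.1, 39.8, 59.9 and 46.4 CPM, and visceral BPA libraries 910, 918, 977 and 984 had 73.9, 45.9, 50.7 and 65.7.

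With all libraries the 4 group means of HSD11B1 lay close together, from 50.1 ± 8.80 CPM in visceral controls to 59.0 ± 13.0 in visceral BPA, and no edgeR test passed. The log2 fold change of BPA against control was 0.07 ± 0.48 in subcutaneous fat (adjusted p = 0.968) and 0.24 ± 0.19 in visceral fat (adjusted p = 0.733). Without control 931 the subcutaneous estimate was 1.01 (adjusted p = 0.0516), just outside the threshold.

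The depot difference of HSD11B1 in controls was -0.13 ± 0.48 with all libraries (adjusted p = 0.878) and 0.81 without control 931 (adjusted p = 0.0294), a call in the other direction. Number 931 has no visceral library, so an edgeR fit with the number as a block over the 3 control pairs also left it out. That fit gave 0.91 (adjusted p = 0.00956). Limma voom over 16 libraries kept control 931 and did not call the difference. It gave 0.39 with the replicate block (adjusted p = 0.444) and 0.28 without it (adjusted p = 0.658). Visceral over subcutaneous differences were 1.21, 1.15 and 0.38 on the log2 scale in 902, 924 and 928. In BPA numbers 918 and 977 they were -0.67 and -0.15, and the depot fold change in BPA ewes was 0.03 ± 0.20 (adjusted p = 0.934). The difference between depots in the BPA effect was 0.18 ± 0.58 with all libraries and -0.77 without control 931, and neither passed.

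H6PD, the enzyme that supplies NADPH to HSD11B1 in the endoplasmic reticulum, was far steadier. It had 155 ± 22.8 CPM in subcutaneous control, 147 ± 10.8 in subcutaneous BPA, 120 ± 15.3 in visceral control and 114 ± 16.1 in visceral BPA. Its depot log2 fold change was -0.37 in both treatments (edgeR, adjusted p = 0.112 and 0.153), without overlap. Of all genes tested, 9.74% in controls and 9.03% in BPA ewes were lower in visceral fat without overlap. The ratio of HSD11B1 to H6PD per length ranged from 1.30 to 1.63 in visceral controls and from 0.559 to 2.58 in subcutaneous controls, with control 931 at the top. HSD11B2, the enzyme that inactivates cortisol, was close to absent, at no more than 0.899 CPM in any library.

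Of the 3 targets only TSC22D3 was called between depots with edgeR. TSC22D3 (GILZ, a leucine zipper protein that mediates anti-inflammatory effects of glucocorticoids) had 312, 246, 436 and 498 CPM in visceral controls 902, 908, 924 and 928. Subcutaneous controls 902, 924, 928 and 931 had 163, 114, 255 and 146 CPM. The depot ranges met at one point, since visceral control 908 (246) lay under subcutaneous control 928 (255).

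TSC22D3 was higher in visceral than in subcutaneous fat of controls by 2.21-fold (log2 1.14 ± 0.27, edgeR adjusted p = 0.0207), the only call among the 6 genes, where 13.3% of all genes tested were called. By unadjusted p, 3 of the 6 genes and 29.5% of all genes were under 0.05 in this comparison. The call was lost without visceral control 928 (log2 0.97, adjusted p = 0.0629), without subcutaneous control 924 (0.99, adjusted p = 0.0532) and without controls 902 and 924 together (0.88, adjusted p = 0.126). Within the 3 control numbers in both depots the visceral library was higher by 0.94, 1.94 and 0.96 on the log2 scale. These 3 visceral libraries lay above every subcutaneous control, which fixed the direction.

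In BPA ewes TSC22D3 had 303, 240, 239 and 508 CPM in visceral libraries 910, 918, 977 and 984, and 176, 132, 86.9 and 196 in subcutaneous libraries 918, 922, 941 and 977. Here every visceral library was above every subcutaneous one, which 9.58% of genes tested were. The difference was 2.18-fold (log2 1.12 ± 0.30, edgeR adjusted p = 0.0424), again the only call of the 6, beside 9.07% of all genes. By unadjusted p, 2 of the 6 and 27.0% of all genes were under 0.05. It passed without visceral 977 (adjusted p = 0.0251) but in none of the other 7 omissions (adjusted p = 0.0503 to 0.126), with log2 values of 0.82 to 1.29. The numbers 918 and 977 had smaller differences, 0.45 and 0.29.

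Cell type markers also differed between depots. Summed mesothelial markers were higher in all visceral libraries (29.9 to 283 CPM against 1.86 to 9.05), which was also the group through which most of them passed the filter. In controls all 8 adipocyte markers (median log2 0.59, 1 called) and all 6 endothelial markers (median 0.45, 1 called) had estimates above 0, counts of calls near the 13.3% of all genes. Macrophage markers were called higher in 1 of 7 (14.3%, also near that share), with 4 of 7 estimates above 0 and a median of 0.03. Nerve markers were called higher in 1 of 2, while 2 of 7 progenitor and 2 of 2 skeletal muscle markers were called lower. In BPA ewes 3 of 7 macrophage markers (median 0.95), 1 of 6 endothelial and 1 of 2 nerve markers were called higher, 2 of 7 progenitor markers were called lower, and 0 of 8 adipocyte markers were called (median 0.04). The part of these cells in the TSC22D3 difference was not tested.

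TSC22D3 was not called for BPA: the log2 fold change was -0.20 ± 0.28 in subcutaneous fat (adjusted p = 0.797) and -0.21 ± 0.29 in visceral fat (adjusted p = 0.836). The difference between depots in the BPA effect was -0.01 ± 0.44.

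FKBP5, the immunophilin that is induced by the receptor and in turn lowers its hormone binding, was near even across groups. Subcutaneous controls 902, 924, 928 and 931 had 90.5, 73.1, 131.6 and 91.4 CPM, and subcutaneous BPA libraries 918, 922, 941 and 977 had 85.2, 137.0, 71.4 and 134.6. Visceral controls 902, 908, 924 and 928 had 73.9, 99.4, 76.9 and 96.9 CPM. Visceral BPA libraries 910, 918 and 977 had 79.8, 75.8 and 88.4 CPM, inside the control range, and library 984 had 205.5.

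The log2 fold change of FKBP5 for BPA was 0.15 ± 0.24 in subcutaneous fat (adjusted p = 0.821) and 0.38 ± 0.31 in visceral fat (adjusted p = 0.736). Without library 984 the visceral estimate was -0.10 (adjusted p = 0.811). Depot fold changes were -0.15 ± 0.19 in controls (adjusted p = 0.631) and 0.07 ± 0.34 in BPA ewes (adjusted p = 0.921).

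FKBP5 competes for HSP90 with its relative FKBP4, which favours the active receptor, so their ratio per length was taken in each library. FKBP5 to FKBP4 was 0.566 ± 0.0745 in visceral control and 0.558 ± 0.108 in visceral BPA. In subcutaneous fat it was 0.908 ± 0.215 in control and 1.12 ± 0.625 in BPA, where library 922 reached 1.99. Visceral ratios ran from 0.449 to 0.676 and subcutaneous ones from 0.604 to 1.99, and 2 of the 8 subcutaneous libraries lay within the visceral range. FKBP4 itself had log2 depot fold changes of 0.49 (adjusted p = 0.139) and 0.90 (adjusted p = 0.0644) in controls and BPA ewes.

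**Figure D2:**
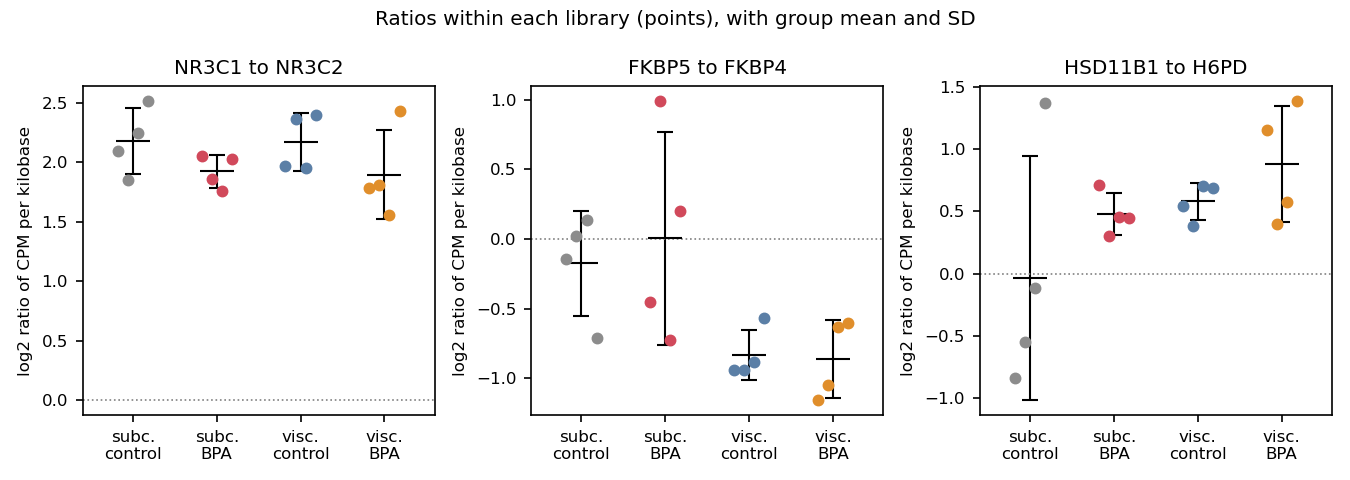
Log2 ratio of CPM per kilobase within each library for the receptor pair, the immunophilin pair and the enzyme pair, with group mean and SD (n = 4); the dotted line marks equal levels. NR3C1 stays above NR3C2 throughout, FKBP5 lies below FKBP4 in all 8 visceral libraries, and subcutaneous control 931 stands far above its group for HSD11B1 to H6PD.

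ZBTB16 (PLZF, a zinc finger transcription factor) was highest in subcutaneous BPA, though unevenly. Libraries 922 and 977 had 525 and 424 CPM, while 918 and 941 had 281 and 239. Subcutaneous controls 902, 924, 928 and 931 had 209, 306, 280 and 261 CPM, a range that covers the lower BPA pair. Visceral controls 902, 908, 924 and 928 had 215, 248, 286 and 208 CPM, and visceral BPA libraries 910, 918, 977 and 984 had 235, 222, 274 and 360.

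The log2 fold change of ZBTB16 for BPA was 0.48 ± 0.24 in subcutaneous fat (adjusted p = 0.396) and 0.20 ± 0.18 in visceral fat (adjusted p = 0.767). Without subcutaneous library 922 the first was 0.26, and without visceral library 984 the second was 0.03. Depot fold changes were -0.14 ± 0.16 in controls (adjusted p = 0.588) and -0.43 ± 0.26 in BPA ewes (adjusted p = 0.311).

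**Figure D3:**
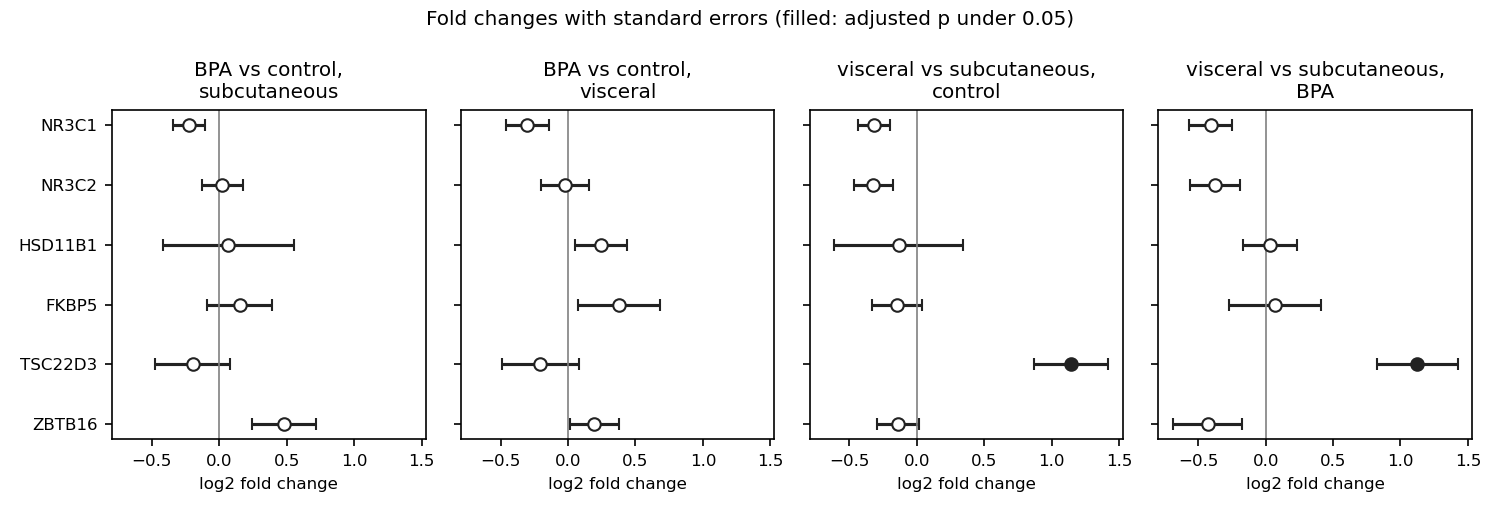
Log2 fold change (horizontal axes) with standard error of each gene in the 4 comparisons, from edgeR; filled points have an adjusted p under 0.05. The 2 filled points are TSC22D3 for visceral against subcutaneous fat, at 1.14 and 1.12, and NR3C1 lies below 0 in all 4 panels.

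For BPA against control, 0 of the 6 genes were called by edgeR in either depot, 0 had an unadjusted p under 0.05 (beside 14.2% and 7.47% of all genes in subcutaneous and visceral fat), and DESeq2 and limma voom also called 0. Of all genes tested, 0.709% were called in subcutaneous fat and 0.00% in visceral fat. The test of a difference between depots in the BPA effect likewise called 0 of 6 with each of these tools, 0 by unadjusted p (6.20% of all genes), and 0.00% of all genes with edgeR. The comparisons share samples, since each group enters a BPA and a depot comparison.

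In subcutaneous fat other markers moved with BPA. Summed macrophage markers were 266 to 411 CPM in BPA against 492 to 639 in controls, and smooth muscle markers 488 to 825 against 321 to 402, without overlap in either. By edgeR 1 of 7 macrophage and 1 of 6 smooth muscle markers were called, beside 0.709% of all genes. Progenitor markers had a median log2 of -0.57 and lymphocyte markers of -0.96, with 0 called. Of these, 4 of 7 and 1 of 4 had an unadjusted p under 0.05, beside 14.2% of all genes. In visceral fat summed endothelial markers were 2253 to 2544 CPM in BPA against 2734 to 2958 in controls, also without overlap, and progenitor markers 921 to 1130 against 1131 to 1419. By edgeR 0 of 6 endothelial and 4 of 7 progenitor markers had an unadjusted p under 0.05, beside 7.47% of all genes, and 0 were called. Smooth muscle sums overlapped (561 to 3503 against 237 to 1012 CPM), though 6 of 6 estimates were above 0 (median log2 1.40, 3 under that p, 0 called). The part of these cells in the NR3C1 difference was not tested.

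Around the 6 genes, 90 other genes of the pathway were listed in 6 groups by role, of which 81 were found in the table by symbol. For BPA against control, edgeR called 0 of 65 tested in subcutaneous fat and 0 of 66 in visceral fat, with 7 and 2 under an unadjusted p of 0.05. DESeq2 called 2 in subcutaneous fat, near its share of all genes (3.43%), and 0 in visceral fat. Those 2, named after their values were seen, were PPP5C and SGK1. PPP5C, a phosphatase that joins the receptor's HSP90 complex, had 1030 ± 293 CPM in BPA against 449 ± 180 in controls (2.30-fold, log2 standard error 0.30, edgeR adjusted p = 0.113). SGK1, a kinase that both corticosteroid receptors induce, had 11.7 ± 6.04 against 30.8 ± 8.71 CPM (log2 -1.40 ± 0.33, edgeR adjusted p = 0.0976).

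Glucocorticoid-induced genes did not move together with BPA: 15 of 28 had estimates above 0 in subcutaneous fat (median log2 0.02) and 11 of 29 in visceral fat (median -0.05), beside medians of -0.006 and 0.002 over all genes. The 15 receptor chaperones had a median of -0.04 in subcutaneous fat. In visceral fat 14 of 15 had estimates above 0 with a median of 0.23, none called and 0 under an unadjusted p of 0.05.

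Of the receptor chaperones, 9 of 15 were called higher in visceral than in subcutaneous fat of controls and all 15 estimates were above 0, with a median log2 of 0.70 beside -0.007 over all genes, of which 7.17% were called higher. HSP90AA1, the inducible HSP90, had 2295 ± 316 against 911 ± 239 CPM (log2 1.34 ± 0.21, edgeR adjusted p = 0.00295). HSPA8, the constitutive HSP70 that loads the receptor onto HSP90, was higher by 1.28 ± 0.20 (adjusted p = 0.00324). Its partner DNAJA1 was higher by 1.22 ± 0.24 (adjusted p = 0.00977), and PTGES3, the p23 cochaperone, by 0.80 ± 0.16 (adjusted p = 0.00993). CDC37, HSP90AB1, HSPA4, PPID and ST13 were the other calls.

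In BPA ewes 7 of 15 chaperones were called higher in visceral fat, with a median of 0.90 and 14 estimates above 0, beside a median of 0.02 over all genes and 5.13% called higher. HSP90AA1 had 2942 ± 1278 against 855 ± 186 CPM (log2 1.78 ± 0.29, edgeR adjusted p = 0.00843). HSPA8 was higher by 2.07 ± 0.45 (adjusted p = 0.0207). HSP90AB1 (1101 ± 352 against 478 ± 31.9 CPM, adjusted p = 0.0119) and CDC37, which guides kinases to HSP90 (740 ± 119 against 369 ± 92.5 CPM, adjusted p = 0.0184), were also higher. PTGES3, PPID and ST13 were the other calls. The exception in sign was PPP5C, at -0.51 (adjusted p = 0.193).

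The chaperone counts moved with single libraries. In controls the 9 became 5 without visceral 908 or 928 or without subcutaneous 924 or 928, and 4 without subcutaneous 902 and 924 together; they became 10 without visceral 924. In BPA ewes the 7 became 2 without subcutaneous 922 or 941, and 4 without subcutaneous 918 or 977; they became 10 without visceral 977, the library that stood apart. HSP90AA1 was called in each of these omissions in both treatments. HSPA8 was called in each omission in controls, and in BPA ewes was lost without subcutaneous 922 (adjusted p = 0.0769) or 941 (adjusted p = 0.0674), as was CDC37 (adjusted p = 0.0598 and 0.0592). With limma voom DNAJA1 in controls was not called, with the replicate block (adjusted p = 0.0513) or without it (adjusted p = 0.0809). PTGES3 in controls was not called without subcutaneous 902 and 924 (adjusted p = 0.0667). The cell type markers given above beside TSC22D3 are from the same comparisons, and their part in the chaperone difference was not tested.

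**Figure D4:**
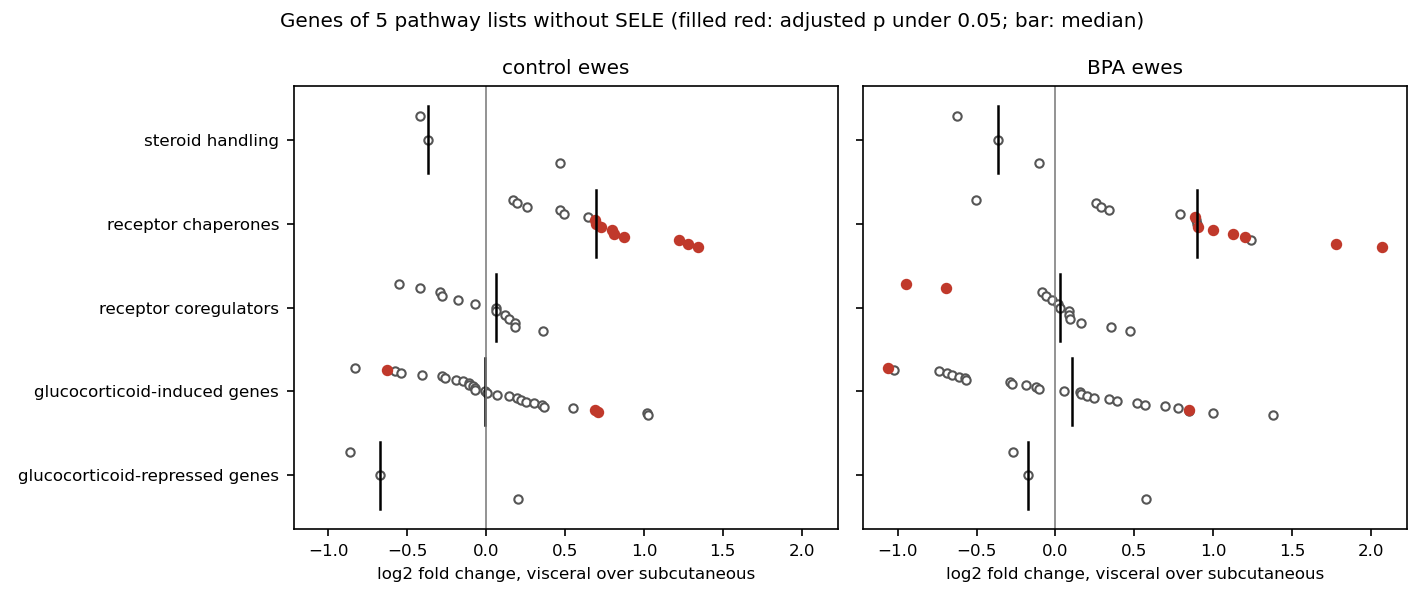
Log2 fold change of visceral over subcutaneous fat (horizontal axis) for the tested genes of 5 pathway lists in control and BPA ewes, without SELE, whose visceral counts are near 0; red points have an adjusted p under 0.05 and the black bar is the list median. The chaperones lie to the right, with medians of 0.70 and 0.90, while induced genes spread to both sides.

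Receptor coregulators showed no common depot shift. In controls edgeR called 0 of 13, with 5 under an unadjusted p of 0.05 and 0.06 as the median log2, beside 13.3% of all genes called and 29.5% under that p. DESeq2 called 3 (MED14, NCOA3 and NRIP1), beside 19.2% of all genes. In BPA ewes 2 of 13 were called, beside 9.07% of all genes. NRIP1, a corepressor of nuclear receptors in fat, was lower in visceral fat by log2 -0.95 ± 0.24 (edgeR adjusted p = 0.0384), and MED14, a Mediator subunit, by -0.69 ± 0.19 (adjusted p = 0.0477). NRIP1 was called without visceral 977 or 984 but in none of the other 6 omissions, and MED14 only without visceral 977.

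Of 29 glucocorticoid-induced genes tested in controls, 2 were called higher in visceral fat and 1 lower, with a median of -0.006, and 13.3% of all genes were called in either direction. FAM107A, an actin-binding protein, was higher by 0.69 ± 0.16 (edgeR adjusted p = 0.017) and CORO2B, a coronin, by 0.71 ± 0.17 (adjusted p = 0.0234). GLUL, glutamine synthetase, was lower by -0.63 ± 0.18 (adjusted p = 0.0404), and its call passed only without subcutaneous control 924 among 8 omissions. GLUL was not called with the limma voom replicate block (adjusted p = 0.0902) or in the fit of 16 libraries (adjusted p = 0.115). The CORO2B call was lost without visceral 902 or 924 or without subcutaneous 924 or 931 (adjusted p at most 0.0652), in the fit of 16 libraries (adjusted p = 0.0866) and with limma voom without a block (adjusted p = 0.096). FAM107A in controls was lost only without subcutaneous 902 and 924 together (adjusted p = 0.0777).

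In BPA ewes FAM107A was again called, at 0.85 ± 0.17 (adjusted p = 0.0163), and lost without subcutaneous 922 (adjusted p = 0.058). BCL6, a repressor, was lower at -1.06 ± 0.30 (adjusted p = 0.0498) with overlapping groups, and was called in 1 of 8 omissions, without visceral 918. The calls on induced genes, 3 of 29 in controls (10.3%) and 2 of 28 in BPA ewes (7.14%), were near the shares of all genes (13.3% and 9.07%).

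Of 16 listed glucocorticoid-repressed genes, 13 were matched by symbol. Most of the 13 were too low to test, with 4 tested in controls. SELE, the adhesion molecule E-selectin of activated endothelium, passed the filter only through subcutaneous fat, which set the direction of its call, so its counts are given as a description. It had 21, 10, 25 and 6 counts in subcutaneous controls 902, 924, 928 and 931, against 1 count in visceral control 902 and 0 in the other 3. PGR, the progesterone receptor, was not called in any comparison.

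Finally, the libraries' deviations from their own group means were compared between genes, as a description over 16 libraries that share preparation and depth. FKBP5 deviated with TSC22D3 (Pearson r = 0.68, Spearman 0.63) and with ZBTB16 (0.67, 0.65), and against NR3C2 (-0.81, -0.79). Such values were not particular to the targets, and no share over all genes was taken. With receptor chaperones FKBP5 had r from -0.25 (PPP5C) and 0.23 (PPID) up to 0.75 (PTGES3) and 0.82 (DNAJA1). NR3C2 had r = -0.84 with HSP90AB1. Without the 2 libraries farthest from the median of FKBP5, r with TSC22D3 and ZBTB16 became 0.46 and 0.63. Without the 2 farthest from the median of NR3C2, r with NR3C2 became -0.68. TSC22D3 and ZBTB16 were more loosely related (r = 0.33). NR3C1 was loosely related to FKBP5 (r = 0.08, Spearman -0.06, 0.14 without the 2 libraries farthest for NR3C1) and TSC22D3 (0.25, 0.25, 0.18). With ZBTB16 it had r = -0.30 (Spearman -0.41, -0.40 without the farthest 2). Within the 8 subcutaneous libraries NR3C1 had r = -0.74 with ZBTB16 and -0.49 with FKBP5, and within the 8 visceral ones -0.16 and 0.26.

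**Figure D5:**
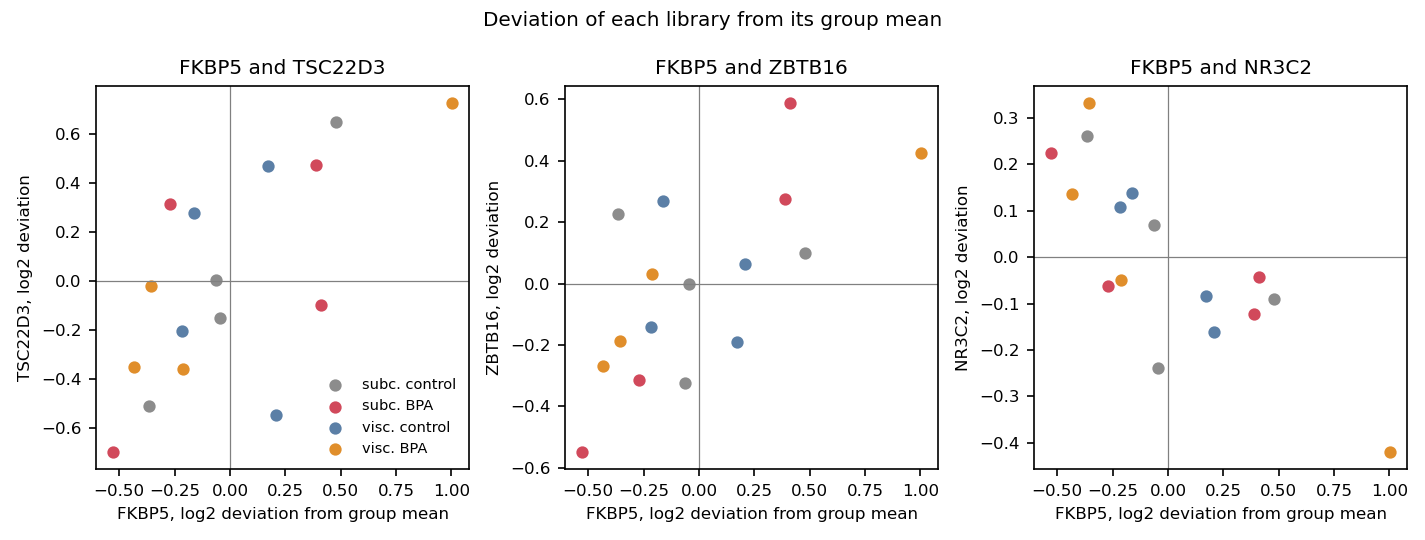
Log2 deviation of each library from its group mean for FKBP5 (horizontal axes) against TSC22D3, ZBTB16 and NR3C2; each of the 16 points is a library, coloured by group. TSC22D3 and ZBTB16 rise with FKBP5 (r = 0.68 and 0.67) and NR3C2 falls (r = -0.81), with visceral BPA library 984 at the far right.

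Among 12407 genes compared in the same way, those closest to each gene differed from gene to gene. For NR3C1 they were SLC35A5 (r = 0.95), STK3 (0.93) and AK3 (0.93), and for NR3C2 they were PGR (0.89), LDB2 (0.86) and CPEB3 (0.86). For HSD11B1 they were CD68 (0.82, 1 of 7 macrophage markers in the table), GPX3 (0.81) and PMEL (0.81). Summed macrophage markers in subcutaneous controls 902, 924, 928 and 931 were 639, 537, 492 and 557 CPM. HSD11B1 had 23.4, 27.1, 35.8 and 135.7 there. Within subcutaneous and visceral fat r was 0.35 and 0.74 for CD68, 0.74 and 0.49 for GPX3, and 0.87 and 0.39 for PMEL. Those within-depot values are from log2 CPM with group means left in, so they are not comparable with 0.82 and 0.81. PMEL was near the floor in visceral fat, with means of 1.70 CPM in controls and 0.84 in BPA. FKBP5 was closest to ARPC5L (0.92), MPHOSPH10 (0.92) and BNIP3 (0.91), TSC22D3 to TINAGL1 (0.90) and APP (0.88), and ZBTB16 to SLC41A1 (0.86), TAF2 (0.85) and UCK1 (0.85). No 2 of the 6 genes shared a closest gene.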

How the data were processed

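The authors deposited 1 table of whole-number counts per gene for 16 libraries of ribosome-depleted RNA, prepared with a SMARTer low-input kit per the labels' protocols. The submitters' processing notes name FastQC 0.11.5, MultiQC 0.9, STAR 2.6.0c and featureCounts of Subread 1.6.1. Neither the genome build nor the strand setting of the counting is stated in any source read, so antisense reads could be included. Chromosome numbers came from matching gene symbols to the RefSeq table of ARS-UI_Ramb_v3.0. All 6 genes were found by symbol. Genes with low counts were removed with filterByExpr (minimum count 10, minimum total 15) and libraries scaled by TMM. Each comparison used edgeR 4.0.16's two-sided quasi-likelihood test in R 4.3.3 on its own 8 libraries (16 for the difference between depots), with Benjamini-Hochberg adjustment over all genes tested and a call at adjusted p under 0.05. CPM are scaled over 16 libraries, and CPM per kilobase divide by the table's exon length. Deviations used log2 CPM with a prior count of 2. The main edgeR fit and the DESeq2 fit of each comparison were run on simulated counts, as was limma voom without a block for the difference between depots. The blocked fits and the other alternatives were not. The 6 genes and all lists were chosen with earlier results of these data known. Named are the 6 genes, up to 4 called genes of each pathway list with the smallest p, and the 3 genes closest to each of the 6. Some genes that this rule names are not reported here. Of 90 listed pathway genes 9 matched no symbol. The main fits did not use the number, so their p-values ignore any pairing. It entered as a block only in alternative fits. Numbers were taken as pairs there in controls, where same-numbered libraries deviated together (correlations across genes of 0.287, 0.400 and 0.332). Correlations between libraries of unlike number were not taken. Alternatives were DESeq2 1.42.0, limma voom 3.58.1, other scalings, filters and blocks, thinning to the lowest total (added after seeing the data) and omission of each library. A planned search of promoter sequences for receptor motifs was not run.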

Additional observations from a re-analysis of the deposited data

Results flagged for a closer look

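In 92 sets of 4 libraries (each gene or ratio in each group), the highest or lowest library was checked for a gap of more than 0.829 of the range, which chance gives in about 1 of 20 sets, and 6 stood out. HSD11B1 in subcutaneous control 931 was at 135.68 CPM, with the other 3 controls at 23.4 to 35.8. FKBP5 in visceral BPA 984 was at 205.492 CPM, with the others at 75.8 to 88.4. MED14 in subcutaneous BPA 922 was at 116.389 CPM, with the others at 66.2 to 73.7. The log2 ratio of FKBP5 to FKBP4 in visceral control 928 was -0.564, with the others at -0.942 to -0.881. SELE was at 0.0892 CPM in visceral control 902 and 0.114 in visceral BPA 918, which are 1 count each where the other libraries of the group have 0.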

How the results depend on the processing

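No setting gave a call among the 6 genes for BPA or for the difference between depots. Genes called for BPA in subcutaneous fat, 96, were 464 with DESeq2, 173 with no filter, 54 with at least 50 counts in 4 libraries, 216 at adjusted p under 0.10, 1 without genes under 200 bases, 46 in a fit of 16 libraries, 1 with limma voom, 1 with its replicate block and 0 without controls 902 and 924 (32 to 128 with 1 library left out). In visceral fat the 0 were 5 with DESeq2, and for the difference between depots 11 (0 to 0 with 1 left out). Depot calls in controls, 1928, were 3062 at adjusted p under 0.10 and 1138 without 902 and 924 (1043 to 1755 with 1 left out). In BPA ewes the 1250 were 2197 with DESeq2, 2312 at adjusted p under 0.10, 2408 in the fit of 16, 1971 with voom and 2300 with its block (369 to 2206 with 1 left out).

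Of the 6 genes, the 1 called between depots in controls became 2 with DESeq2 (adding NR3C1). It became 2 with the edgeR replicate block, which leaves out control 931 (adding HSD11B1), and 0 without 902 and 924 (0 to 2 with 1 left out). In BPA ewes it became 2 in the fit of 16, with voom and with its block (adding NR3C1), and 0 in the edgeR block of 2 pairs, whose numbers correlated at 0.167 and 0.0313 and were not taken as pairs (0 to 1 with 1 left out). Pathway genes for BPA in subcutaneous fat were 2 with DESeq2, 1 with no filter and 1 at adjusted p under 0.10 (0 to 1 with 1 left out). Between depots the 14 in controls were 22 with DESeq2 and 8 without 902 and 924 (8 to 14), and the 12 in BPA ewes were 3 to 16.

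Log2 estimates that changed sign were uncalled, except HSD11B1 between depots in controls. Without 902 and 924, HSD11B1 and FKBP5 for BPA in subcutaneous fat were -0.56 and -0.0507, and the TSC22D3 difference between depots 0.24 (0.0360 after thinning). HSD11B1 between depots in controls was 0.28 with voom, 0.39 with its block and 0.91 with the edgeR block. In BPA ewes it was -0.0132 with upper quartile scaling, -0.0370 with the voom block and -0.41 with the edgeR block, and FKBP5 -0.0152 with voom, -0.0660 with its block and -0.39 with the edgeR block. The HSD11B1 difference between depots was -0.26 with voom and -0.43 with its block.

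With 1 library left out, BPA estimates in subcutaneous fat ran from -0.0541 to 0.12 for NR3C2, -0.18 to 1.01 for HSD11B1 and -0.35 to 0.0690 for TSC22D3. In visceral fat they ran from -0.15 to 0.10 for NR3C2 and -0.10 to 0.53 for FKBP5. Depot estimates in controls ran from -0.40 to 0.81 for HSD11B1 and -0.27 to 0.0419 for FKBP5, and in BPA ewes from -0.10 to 0.17 and -0.40 to 0.22. Differences between depots in the BPA effect ran from -0.16 to 0.0348 for NR3C1, -0.17 to 0.0778 for NR3C2, -0.77 to 0.43 for HSD11B1, -0.25 to 0.37 for FKBP5 and -0.32 to 0.16 for TSC22D3. The causes of these moves were not tested.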
